A study of Mus musculus with 12 samples.

Results

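The genes described here are 34 genes of the unfolded protein response and of the ATF4 stress response, taken by name from the 43278 gene symbols measured in thioglycolate-elicited peritoneal macrophages (PMφs). They fall into 14 ER chaperones and folding enzymes, 7 genes of ER-associated degradation (ERAD) and translocation, 4 stress sensors with the transcription factor XBP1, and 9 genes of the ATF4/CHOP branch. All 34 passed the filter on low values in every comparison. The question put to them was whether the chaperones and the ATF4/CHOP branch moved together when PMφs were given oxidized LDL (oxLDL), LPS or both.

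RNA came from 12 cultures of PMφs of wild-type C57BL/6J mice of both sexes, 8 to 12 weeks of age, harvested 4 days after thioglycolate and used after 18 h of adherence. The 4 groups of 3 were control PMφs with neither agent, PMφs given 100 µg/ml human medium oxidized LDL for 24 h, PMφs given 10 ng/ml LPS without oxLDL, and PMφs given the same oxLDL followed by the same LPS. The duration of LPS is not stated for these libraries. Per the study's methods, cells of up to 10 mice were pooled in each experiment and divided among the groups, so that a library stands for a pool and not for 1 animal, and the replicate numbers 1, 2 and 3 run through all groups.

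Values are normalized counts, which are reads per gene divided by 1 factor per library and rounded. They summed to 17152972 to 17709731 per library without LPS and to 22071853 to 26384551 with LPS, from an implied 16724340 to 26176326 reads. Summed macrophage markers (8 of 8 detected, among them Adgre1, Csf1r and Cd68) lay between 231967 and 347950 in every library. Of 6 T cell markers 1 reached 10, Lck, with 11 to 26 without LPS and 79 to 234 with it. Of 6 neutrophil markers 2 did, S100a8 (31 to 248) and Camp (at most 10), and Ly6g was at 0 throughout. Of 9 B and plasma cell markers 6 did, with sums of 4556 to 15557, mostly Sdc1 (4486 to 15508). Of 4 eosinophil markers 2 did (Siglecf, 55 to 383). So did 4 of 5 mast cell and 4 of 5 dendritic cell markers, with sums of at most 117 and 134. Summed mesothelial and fibroblast markers (8 of 8 detected) followed the replicate number and were 18323 to 31638 in number 1, 14328 to 17288 in number 2 and 5347 to 6204 in number 3. Libraries of number 1 went against a shared pool: Xist read 1 and 2 in the control and oxLDL libraries, where Y-linked genes summed to 3138 and 3009, but 6331 and 3812 in the LPS and oxLDL+LPS libraries, where they summed to 1023 and 1004. Number 2 held almost no Y-linked reads in any group, and number 3 held both kinds in every group. Counts of members called after LPS are therefore also given without number 1. In bulk RNA, fewer cells of a type and less RNA per cell cannot be told apart.

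Cells sense unfolded proteins in the endoplasmic reticulum through IRE1 (encoded by Ern1), ATF6 and PERK (Eif2ak3), which the chaperone BiP (Hspa5) holds inactive. IRE1 splices Xbp1 mRNA, and XBP1 and cleaved ATF6 switch on chaperones and ERAD genes. PERK phosphorylates eIF2α, as do other kinases that sense viral RNA, heme shortage or amino acid shortage, which favors translation of ATF4. ATF4 then raises transcription of its targets, among them CHOP (Ddit3), amino acid synthesis enzymes and the phosphatase subunit GADD34 (Ppp1r15a). Gene-level counts show neither the splicing of Xbp1 nor the translation of Atf4. In macrophages, Toll-like receptor signaling is known to engage parts of this network.

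The median change after LPS differed between the groups of members, with called genes in both directions. In LPS against control, 9 members were higher and 6 were lower at a Benjamini-Hochberg adjusted p under 0.1 (limma on log2 of the value plus 1, 3 libraries against 3). These 15 of 34 stood against 61.7% of all 13006 genes tested, of which 31.4% were higher and 30.3% lower. The comparison of oxLDL+LPS against oxLDL shares no library with the first, but same-numbered libraries of both correlated, so it is not an independent repeat. In it 8 members were higher and 7 lower, against 54.5% of 12883 genes (28.1% higher, 26.3% lower). The share of members called was thus below that of all genes in both. The libraries with LPS did not overlap with those without it for 15 of 34 members in each comparison, against 63.2% and 57.6% of all genes. The median log2 fold change in LPS against control was 0.07 for the chaperones, 0.14 for ERAD and translocation, −0.78 for the sensors and XBP1 and 1.36 for the ATF4/CHOP branch, beside a median near 0 for all genes tested. In oxLDL+LPS against oxLDL these medians were −0.09, 0.10, −0.63 and 1.36.

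With the replicate number as a block in the same fit, 20 members were called in LPS against control (13 higher, 7 lower, against 68.7% of all genes, 34.6% higher and 34.1% lower) and 21 in oxLDL+LPS against oxLDL (12 higher, 9 lower, against 63.4%, 32.0% higher and 31.4% lower). The block treats same-numbered libraries as pairs, which the sex-linked genes of number 1 put in doubt across LPS. Without replicate number 1 in either group, 16 and 13 members were called in the fit without the block, against 54.1% and 44.7% of all genes. Scaling moved the direction of small changes. Quantile normalization shifted the median of all genes by −0.14 in LPS against control, where 5 members were called higher and 15 lower (24.9% and 37.0% of all genes). It shifted the median in oxLDL+LPS against oxLDL by −0.11, with 3 members higher and 17 lower (22.1% and 33.2% of all genes). Scaling by the library total shifted the medians by −0.48 and −0.38. It gave 4 members higher and 16 lower in the first comparison (17.0% and 55.3% of all genes) and 3 higher and 16 lower in the second (15.9% and 51.3% of all genes). Changes below are relative to the authors' scaling. Those called without or with the block that another scaling turns or ends are marked, and small uncalled changes may turn as well.

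**Figure D1:**
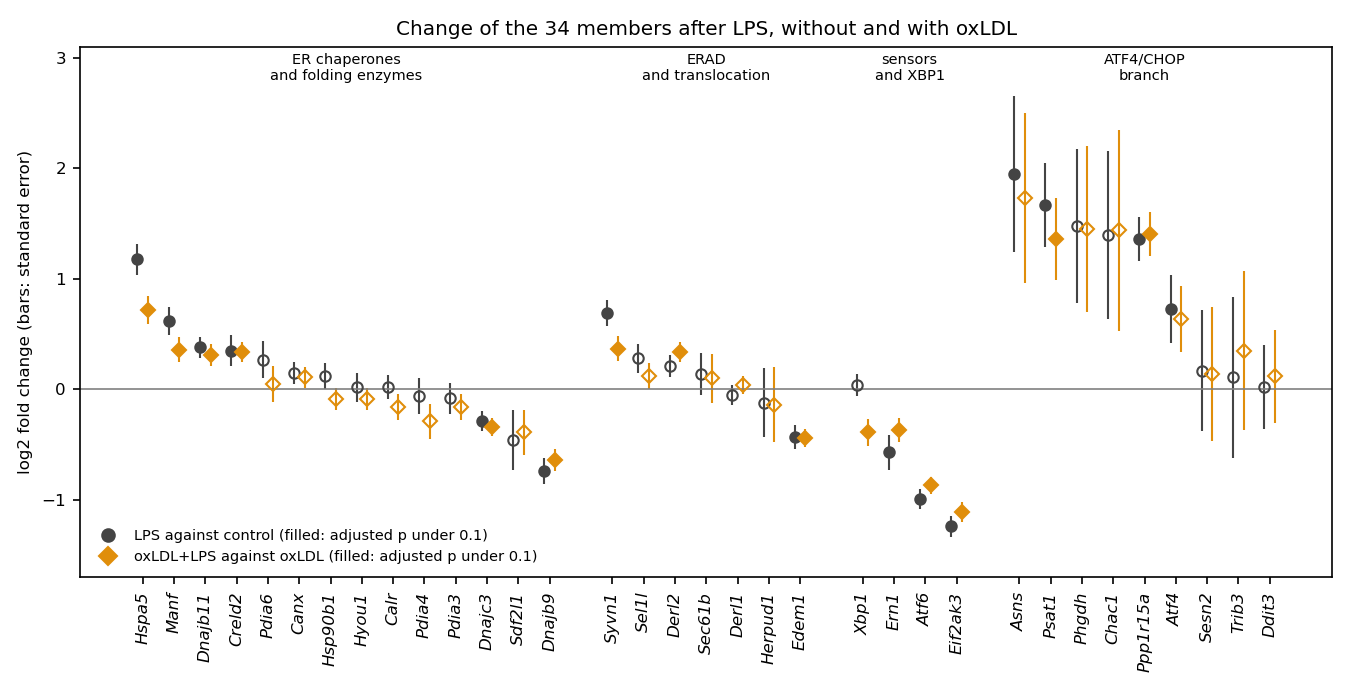
Log2 fold change of each of the 34 members (horizontal axis, grouped by role) after LPS, without oxLDL (circles) and with oxLDL (diamonds), with standard errors from limma on 3 against 3 libraries. The 9 genes of the ATF4/CHOP branch lie above 0 in both comparisons with wide errors, Atf6, Ern1 and Eif2ak3 lie below 0, and the chaperones lie on both sides of it.

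Among the chaperones, Hspa5 rose most. Hspa5 (ENSMUSG00000026864.13, GRCm38 chr2:34771970-34777547, plus strand) encodes BiP, the Hsp70 chaperone of the ER lumen. In libraries 1, 2 and 3, in that order here and below, it read 9572, 7306 and 8453 in control, 10582, 8080 and 9150 with oxLDL, 21471, 16522 and 19349 with LPS, and 16222, 15500 and 13909 with both. Every library with LPS lay above every library without it, and with oxLDL all 3 LPS-treated libraries lay below all 3 that had LPS alone. The rise was 2.26-fold without oxLDL (log2 1.18 ± 0.14, SE, adjusted p = 0.000313, limma) and 1.65-fold with it (0.72 ± 0.13, adjusted p = 0.00278). Quantile normalization ended both calls, with log2 changes of 0.32 and 0.02 (adjusted p = 0.126 and 0.927), whereas the other scalings kept them.

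Manf, a secreted neurotrophic factor held in the ER and released under stress, read 683, 608 and 616 in control, 707, 622 and 717 with oxLDL, 1159, 861 and 935 with LPS and 927, 920 and 783 with both. Its groups with and without LPS did not overlap. The log2 rise was 0.62 ± 0.13 (adjusted p = 0.00448) without oxLDL and 0.36 ± 0.11 (adjusted p = 0.0265) with it. Scaling by the library total ended the first call (0.14, adjusted p = 0.464), and both that scaling (−0.03, adjusted p = 0.834) and quantile normalization (0.18, adjusted p = 0.218) ended the second. The second was also lost without number 1 or 2 in both groups (0.35 and 0.26, adjusted p = 0.123 and 0.154). Dnajb11, an Hsp40 cochaperone of BiP, read 2033, 1747 and 1880 in control, 2107, 1696 and 1974 with oxLDL, 2555, 2325 and 2495 with LPS, and 2460, 2442 and 2248 with both. It rose by log2 0.38 ± 0.092 (adjusted p = 0.00896) and 0.31 ± 0.10 (adjusted p = 0.0373), again with no overlap, although the second call was lost without oxLDL replicate 2 (0.22, adjusted p = 0.112). The second call was also lost without number 2 or 3 in both groups (0.21 and 0.37, adjusted p = 0.153 and 0.112). Under quantile normalization and library totals its differences were below 0 and not called in either comparison. Creld2, an ER stress-inducible disulfide isomerase, read 387, 366 and 318, then 385, 423 and 417, then 536, 412 and 424, and last 534, 515 and 497 in the same order of groups. Its rises of 0.35 ± 0.14 (adjusted p = 0.0676) and 0.34 ± 0.092 (adjusted p = 0.02) came without overlap in either comparison. The first call was lost without LPS replicate 1, control replicate 2 or control replicate 3, where it was 0.23, 0.37 and 0.27 (adjusted p = 0.164, 0.121 and 0.204). It was also lost under quantile normalization (0.29, adjusted p = 0.127) and without the filter (adjusted p = 0.102), and library totals turned both differences below 0. Without number 1, 2 or 3 in both groups the first was not called (0.29, 0.44 and 0.32, adjusted p = 0.144, 0.106 and 0.206). The second was lost without number 1 (0.27, adjusted p = 0.137).

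The J-domain cochaperones Dnajb9 and Dnajc3 moved the opposite way. Dnajb9 (ERdj4), which feeds misfolded clients to ERAD and restrains IRE1, read 669, 693 and 758 in control, 628, 702 and 738 with oxLDL, 455, 451 and 366 with LPS and 470, 442 and 412 with both. All 6 libraries with LPS lay below all 6 without it, and it fell by 0.74 (± 0.12, adjusted p = 0.00132) and by 0.64 (± 0.10, adjusted p = 0.00187) on the log2 scale. Dnajc3 (p58IPK), a BiP cochaperone known as an inhibitor of eIF2α kinases, read 1825, 1991 and 1914, then 1903, 1959 and 1889, then 1690, 1535 and 1471, and last 1614, 1557 and 1381. It fell by 0.29 (± 0.09, adjusted p = 0.0272) and by 0.34 (± 0.085, adjusted p = 0.0135), with no overlap in either comparison. The first call was lost without number 2 or 3 in both groups (−0.25 and −0.24, adjusted p = 0.156 and 0.191). The second was lost without number 3 (−0.28, adjusted p = 0.113).

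None of the other chaperones was called after LPS in the unblocked fit on the authors' scaling, but each passed under some other setting. Hsp90b1, which encodes GRP94, the Hsp90 of the ER, read 7295, 6681 and 6619 in control, 8062, 7185 and 7284 with oxLDL, 8748, 6904 and 6829 with LPS and 7642, 7171 and 6335 with both. Its groups overlapped, and its log2 differences were 0.12 ± 0.12 (adjusted p = 0.444) and −0.09 ± 0.10 (adjusted p = 0.488). Its smallest adjusted p over the alternatives was 0.0112 and 0.00176, in a direction that was not read. Pdia6, a disulfide isomerase that binds IRE1, read 3083, 2140 and 2406, then 3467, 2444 and 2769, then 3621, 2581 and 2957, and last 3533, 2728 and 2679. It was higher with LPS in 3 of 3 numbers, but the groups overlapped and the difference of 0.27 ± 0.17 (adjusted p = 0.221) passed with the block (adjusted p = 0.0205) and without control replicate 1 (0.41, adjusted p = 0.0776), while it was below 0 and not called under quantile normalization and library totals.

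Sdf2l1, a partner of the ERdj3 complex, read 885, 658 and 871 in control, 924, 694 and 829 with oxLDL, 856, 392 and 583 with LPS, and 820, 496 and 579 with both. Replicate number 1 was the highest of each group and differed least with LPS, while numbers 2 and 3 were lower with it. The differences of −0.46 ± 0.27 (adjusted p = 0.188) and −0.39 ± 0.20 (adjusted p = 0.146) passed with the block (adjusted p = 0.0269 and 0.0152) and without the LPS-treated library of number 1 (−0.74 and −0.60, adjusted p = 0.0252 and 0.019), and also under quantile normalization (adjusted p = 0.0729 and 0.0524) and library totals (adjusted p = 0.0241 and 0.0157). Pdia4, another disulfide isomerase, read 1306, 1372 and 1141, then 1527, 1392 and 1234, then 1542, 1162 and 1016, and last 1273, 1282 and 888. Its difference of −0.29 ± 0.16 (adjusted p = 0.188) in oxLDL+LPS against oxLDL passed with the block (adjusted p = 0.0357), under quantile normalization (−0.55, adjusted p = 0.0299) and under library totals (−0.68, adjusted p = 0.0117). The nucleotide exchange factor Hyou1 read between 2081 and 2812 in all libraries. Pdia3 (5816 to 8323), the lectin chaperones Calr (10122 to 14132) and Canx (8593 to 11298) and Hyou1 were called in neither LPS comparison without or with the block, although the 3 LPS libraries of Canx lay above its 3 control libraries. Over the alternatives their smallest adjusted p in LPS against control was 0.0046 (Pdia3), 0.000684 (Calr), 0.000589 (Canx) and 0.0353 (Hyou1). In oxLDL+LPS against oxLDL it was 0.00313, 0.000947, 0.00176 and 0.00574. The direction under those settings was not read, and quantile normalization and library totals lowered the median of all genes. These smallest values, like those of Hsp90b1, therefore do not bear on the signs on the authors' scaling, that of Canx included.

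Promoter windows show where the chaperones and the ATF4/CHOP branch differ in sequence. RefSeq promoter windows on GRCm38.p6, from 250 bases before to 50 bases after a start site, were at hand for 30 of the 34 members. The ER stress response element (ERSE), read as CCAAT, any 9 bases and CCACG on either strand, occurred in windows of 7 of 12 chaperones (Hspa5, Hsp90b1, Dnajc3, Pdia6, Calr, Canx and Creld2) and 1 of 6 ERAD and translocation genes (Syvn1). It occurred in 0 of 3 sensors and 0 of 9 ATF4/CHOP genes, and in 37 of 27025 gene symbols with a window (0.137%). The amino acid response element (CARE), read as TGATGNAA on either strand, occurred in 3 of 9 ATF4/CHOP genes (Trib3, Asns and Chac1), in Herpud1 and in no chaperone, against 4.51% of all symbols. ERSE-II, read as ATTGG, any 1 base and CCACG, occurred in Dnajb11 and Herpud1 (0.0444% of all symbols). The element TGACGTGG, known to bind XBP1 and ATF6, occurred in no member (0.714% of all symbols). A match is only a run of letters, and a missing match says only that these letters are not in the window.

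The stretches below show the matched letters in capitals, 5′ to 3′ on the gene's strand, for the 4 members with the smallest adjusted p (without or with the block) among those whose match lies upstream of the start site, and for Hsp90b1, which was added after its values were seen because it holds the ERSE in both orientations. The capitals are the fixed bases of the ERSE, except in Asns, where they are those of the CARE. The Hspa5 stretch lies at chr2:34772020-34772048 on the plus strand, the Syvn1 stretch at chr19:6046492-6046575 on the plus strand, and the Dnajc3 stretch at chr14:118937787-118937885 on the plus strand. The Hsp90b1 stretch lies at chr10:86705510-86705694 on the minus strand and the Asns stretch at chr6:7693214-7693243 on the minus strand. The matches of Hspa5 and Asns lie upstream of the RefSeq start but inside the first exon of a longer GENCODE transcript, so only a short stretch is shown for them.
Hspa5: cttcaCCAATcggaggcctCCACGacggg
Syvn1: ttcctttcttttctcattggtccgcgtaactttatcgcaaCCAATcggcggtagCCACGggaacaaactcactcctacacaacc
Dnajc3: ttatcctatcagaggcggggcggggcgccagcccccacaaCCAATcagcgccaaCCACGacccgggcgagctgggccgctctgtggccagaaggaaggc
Hsp90b1: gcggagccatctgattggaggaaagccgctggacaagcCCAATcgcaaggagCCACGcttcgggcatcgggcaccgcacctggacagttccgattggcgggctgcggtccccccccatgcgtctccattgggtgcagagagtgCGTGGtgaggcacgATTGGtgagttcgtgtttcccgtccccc
Asns: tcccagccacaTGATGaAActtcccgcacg

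Members with an ERSE did not share a response to LPS. Hspa5, Creld2 and Syvn1 rose, Dnajc3 fell, and Hsp90b1, Calr and Canx were not called without or with the block, with log2 differences of 0.12, 0.02 and 0.15 in LPS against control. Pdia6 was not called without the block.

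Of the 7 ERAD and translocation genes, Syvn1 rose and Edem1 fell in both LPS comparisons. Syvn1 (chr19:6046576-6053712, plus strand) encodes HRD1, the ubiquitin ligase of ERAD. It read 1089, 1208 and 1182 in control, 1170, 1284 and 1298 with oxLDL, 1620, 1879 and 2133 with LPS and 1390, 1806 and 1695 with both. No library with LPS fell into the range of the libraries without it. The log2 rise was 0.69 ± 0.12 (adjusted p = 0.00168) and 0.37 ± 0.11 (adjusted p = 0.0299), the second lost without oxLDL replicate 1 (0.33, adjusted p = 0.104), under quantile normalization (0.08, adjusted p = 0.537) and under library totals (−0.02, adjusted p = 0.904). The second call was also lost without number 2 or 3 in both groups (0.32 and 0.37, adjusted p = 0.12 and 0.153). Edem1, a lectin that hands glycoproteins to ERAD, read 6569, 5949 and 6200, then 5936, 5446 and 5344, then 4389, 4276 and 5246, and last 3908, 4089 and 4328. It was lower in every LPS-treated library than in every other library, and it fell by 0.43 (± 0.11, adjusted p = 0.0103) and by 0.44 (± 0.083, adjusted p = 0.00407).

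Derl2, a channel component of ERAD, read 1208, 1058 and 1250 in control, 1245, 1129 and 1360 with oxLDL, 1244, 1442 and 1368 with LPS and 1524, 1569 and 1638 with both. The change passed the test with oxLDL (0.34 ± 0.092, adjusted p = 0.0178) and missed it without (0.21 ± 0.10, adjusted p = 0.128), and the difference between these changes was not called (0.14 ± 0.13, adjusted p = 1.0). Quantile normalization (0.06, adjusted p = 0.642) and library totals (−0.05, adjusted p = 0.679) ended its call. In LPS against control the smallest adjusted p of Derl2 over the alternatives was 0.0365, in a direction that was not read. Sel1l, the adaptor of HRD1, read 4301, 4674 and 4144, then 4199, 4646 and 4092, then 4425, 6221 and 5429, and last 4262, 5496 and 4377. Number 2 was the highest of each group. Its difference of 0.28 ± 0.13 in LPS against control passed with the block (adjusted p = 0.114, and 0.0457 with the block) and without LPS replicate 1 (0.41, adjusted p = 0.0153). It also passed in the fit on all 12 libraries (adjusted p = 0.0881) and without number 1 in both groups (0.40, adjusted p = 0.052). Quantile normalization turned it to −0.34 (adjusted p = 0.0392) and library totals to −0.20 (adjusted p = 0.173).

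Herpud1, an ERAD scaffold with both an ERSE-II and a CARE in its promoter window, read 308, 418 and 305 in control, 318, 451 and 292 with oxLDL, 204, 510 and 291 with LPS and 199, 509 and 308 with both. Number 2 was highest and, with LPS, number 1 was lowest, so that the groups overlapped widely and the differences were −0.12 ± 0.31 (adjusted p = 0.766) and −0.14 ± 0.34 (adjusted p = 0.763). Derl1 (2409 to 2859) and the translocon subunit Sec61b (358 to 609) were not called in any comparison without or with the block.

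The sensors fell with LPS while oxLDL left them near control. Eif2ak3 (ENSMUSG00000031668.14, GRCm38 chr6:70844515-70905245, plus strand), which encodes the kinase PERK, read 580, 582 and 611 in control, 602, 589 and 585 with oxLDL, 246, 251 and 254 with LPS and 285, 270 and 264 with both. The libraries of a group lay close together, and those with LPS were well below the rest. It fell by 1.24 (± 0.095, adjusted p = 2.74e-05) without oxLDL and by 1.11 (± 0.091, adjusted p = 6.81e-05) with it on the log2 scale. Atf6, the membrane-bound transcription factor cleaved on ER stress, read 2808, 2989 and 3095, then 2665, 2658 and 2837, then 1392, 1479 and 1594, and last 1588, 1435 and 1452. It fell by 0.99 (± 0.09, adjusted p = 6.03e-05) and by 0.87 (± 0.078, adjusted p = 0.000112), without overlap.

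Ern1, which encodes the splicing nuclease IRE1, read 1550, 1848 and 1521 in control, 1448, 1632 and 1516 with oxLDL, 910, 1385 and 1054 with LPS and 1059, 1332 and 1170 with both. Number 2 was highest in each group, yet no LPS-treated library reached the lowest library without LPS. It fell by 0.57 (± 0.16, adjusted p = 0.0191) and by 0.37 (± 0.11, adjusted p = 0.0226). Xbp1, the substrate of IRE1, read 2546, 2400 and 2406 in control, 2771, 2638 and 2804 with oxLDL, 2274, 2597 and 2731 with LPS and 1862, 2500 and 1940 with both. Its LPS libraries overlapped with control (0.04 ± 0.096, adjusted p = 0.724), whereas all 3 libraries with both agents lay below all 3 with oxLDL alone (−0.39 ± 0.12, adjusted p = 0.0308). The fall with LPS of Eif2ak3, Atf6 and Ern1 was called in both comparisons, under the other scalings tried, and in all fits that left out 1 library. Without number 3 in both groups Ern1 was not called in oxLDL+LPS against oxLDL (−0.37, adjusted p = 0.14). In that comparison Xbp1 was not called without number 1 or 3 (−0.30 and −0.33, adjusted p = 0.185 and 0.212).

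**Figure D2:**
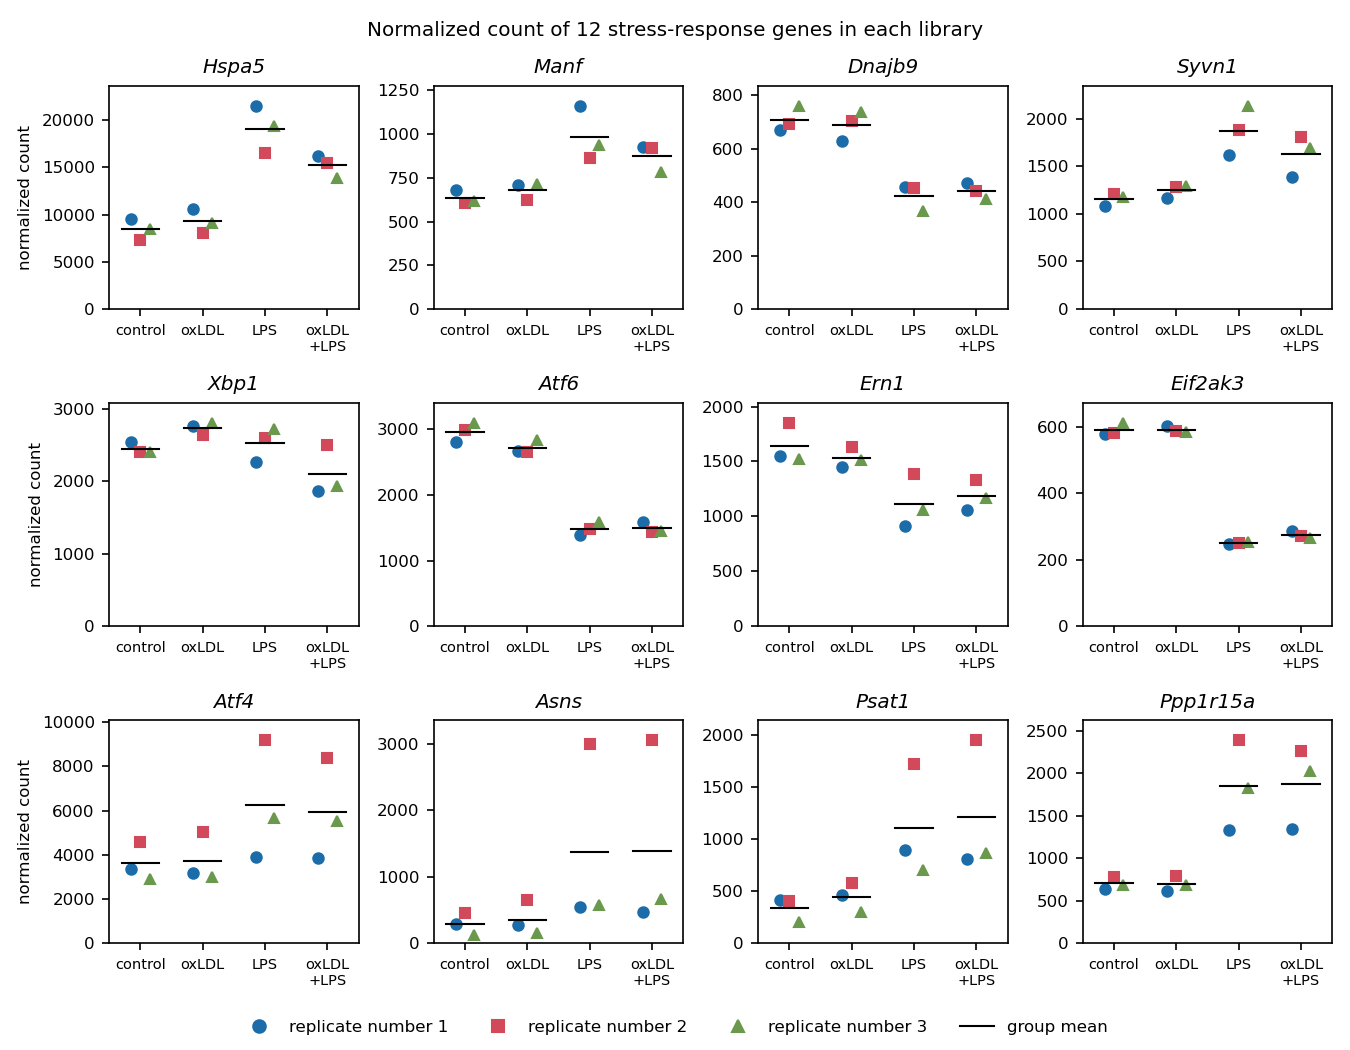
Normalized count (vertical axis, from 0) of 12 members in each of the 12 libraries, by group, with the replicate number as color and shape and the group mean as a line. Eif2ak3 and Atf6 separate by LPS with little spread, while Atf4, Asns and Psat1 with LPS are far higher in number 2, where Asns reaches 3005 and 3058, than in numbers 1 and 3.

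In the ATF4/CHOP branch all 9 members had a log2 fold change above 0 in both LPS comparisons on the authors' scaling, but the replicates were far apart and the tests divided them. Ppp1r15a, which encodes GADD34, the regulatory subunit that lets eIF2α be dephosphorylated, read 642, 782 and 681 in control, 613, 786 and 680 with oxLDL, 1335, 2389 and 1831 with LPS and 1346, 2260 and 2027 with both. All 6 libraries with LPS were above all 6 without it. It rose 2.57-fold (log2 1.36 ± 0.20, adjusted p = 0.000813) without oxLDL and 2.66-fold (1.41 ± 0.20, adjusted p = 0.000983) with it. Psat1, an enzyme of serine synthesis, read 410, 399 and 205, then 461, 578 and 299, then 891, 1721 and 705, and last 803, 1945 and 867. Its groups did not overlap, and it rose 3.18-fold (1.67 ± 0.38, adjusted p = 0.00675) and 2.57-fold (1.36 ± 0.37, adjusted p = 0.0203).

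Atf4 (ENSMUSG00000042406.8, GRCm38 chr15:80255184-80257541, plus strand) read 3358, 4589 and 2890 in control, 3156, 5012 and 2996 with oxLDL, 3900, 9186 and 5682 with LPS and 3862, 8384 and 5546 with both. Number 2 without LPS was above number 1 with LPS, so that the groups overlapped although each number was higher with LPS. Atf4 rose 1.66-fold in LPS against control (log2 0.73 ± 0.31, adjusted p = 0.0774, and 0.00608 with the block). This call was lost under quantile normalization (0.13, adjusted p = 0.739), library totals (0.25, adjusted p = 0.491), no filter (adjusted p = 0.119) and no variance trend (adjusted p = 0.124). It was also lost without LPS replicate 2, LPS replicate 3, control replicate 1 or control replicate 3, where the change was 0.41, 0.76, 0.69 and 0.58 (adjusted p = 0.189, 0.138, 0.169 and 0.2). Without number 3 in both groups the change was 0.61 and not called (adjusted p = 0.279). In oxLDL+LPS against oxLDL the difference of 0.64 ± 0.30 (adjusted p = 0.126) passed with the block (adjusted p = 0.00496), without oxLDL replicate 2 (0.88, adjusted p = 0.0675), without oxLDL+LPS replicate 1 (0.91, adjusted p = 0.0362) and without number 2 in both groups (0.59, adjusted p = 0.0569).

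Asns, asparagine synthetase and a known ATF4 target, read 286, 455 and 126 in control, 270, 643 and 147 with oxLDL, 546, 3005 and 579 with LPS and 462, 3058 and 661 with both. With LPS number 2 stood at 3005 or more while numbers 1 and 3 read 462 to 661. The rise in LPS against control was 3.86-fold (log2 1.95 ± 0.71, adjusted p = 0.0489, and 0.00118 with the block). It was 1.14 without LPS replicate 2 (adjusted p = 0.0907) and was lost without control replicate 3 (1.44, adjusted p = 0.139) and under library totals (1.47, adjusted p = 0.113). The call was also lost without number 3 in both groups (1.83, adjusted p = 0.107). In oxLDL+LPS against oxLDL the groups overlapped and the difference of 1.73 ± 0.77 passed with the block (adjusted p = 0.108, and 0.0027 with the block) and without oxLDL replicate 2 or oxLDL+LPS replicate 1 (2.29 and 2.27, adjusted p = 0.0673 and 0.0615) and without number 2 in both groups (1.47, adjusted p = 0.0239).

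Phgdh, the first enzyme of serine synthesis, read 342, 411 and 115 in control, 345, 552 and 141 with oxLDL, 450, 2057 and 380 with LPS, and 390, 2500 and 562 with both. Chac1, which degrades glutathione, read 35, 62 and 14, then 25, 58 and 10, then 34, 245 and 71, and last 22, 237 and 60. In both genes number 2 was the highest with LPS by a wide margin, and number 1 differed little between the groups. Their differences of 1.48 ± 0.70 and 1.40 ± 0.76 in LPS against control passed with the block (adjusted p = 0.00601 and 0.0262, against 0.112 and 0.158 without it) and without a single LPS library, replicate 3 for Phgdh (1.92, adjusted p = 0.0778) and replicate 1 for Chac1 (2.04, adjusted p = 0.0535). The same held in oxLDL+LPS against oxLDL (1.45 ± 0.75 and 1.44 ± 0.91, adjusted p = 0.0164 and 0.0493 with the block), where leaving out oxLDL+LPS replicate 1 gave 1.98 and 2.23 (adjusted p = 0.0802 and 0.0732).

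Ddit3, Trib3 and Sesn2 did not pass in either LPS comparison or fit. Ddit3 (ENSMUSG00000025408.15, GRCm38 chr10:127290774-127296288, plus strand), the proapoptotic transcription factor CHOP, read 353, 533 and 302 in control, 300, 551 and 363 with oxLDL, 266, 722 and 311 with LPS and 253, 814 and 372 with both. With LPS number 1 was lower than in control and number 2 higher, and the mean differences were 0.02 ± 0.38 (adjusted p = 0.963) and 0.12 ± 0.42 (adjusted p = 0.846). Trib3, a pseudokinase induced by ATF4 and CHOP, read 159, 280 and 91, then 131, 344 and 118, then 76, 563 and 119, and last 93, 663 and 179. The differences were 0.11 ± 0.73 (adjusted p = 0.911) and 0.35 ± 0.72 (adjusted p = 0.725), with standard errors that leave both a rise and a fall possible. Sesn2, a leucine sensor and stress gene, ranged from 205 to 1390, and both ends were LPS-treated libraries.

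The chaperones and the ATF4/CHOP branch differed most in numbers 2 and 3. The chaperone median minus the ATF4/CHOP median of the log2 fold changes was −1.29 in LPS against control and −1.45 in oxLDL+LPS against oxLDL. By replicate number the first difference was −0.03, −1.57 and −1.42 and the second −0.24, −1.53 and −1.67, so that in number 1 the branches hardly parted. The LPS response genes also stood lower in number 1, which was the lowest library for 5 of 8 of them with LPS and for 8 of 8 with both agents. Il6 read 2135, 9776 and 14906 with LPS and 261, 4786 and 2683 with both, whereas Nos2 read 10411, 10173 and 14245 with LPS. Their part in the branch difference was not tested. Without LPS replicate 2 the first difference was −0.54 and without control replicate 3 it was −0.79. Without oxLDL+LPS replicate 2 the second difference was −0.61, and without oxLDL replicate 3 it was −0.92. Both differences were below 0 in every fit that left out libraries.

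The ATF4/CHOP genes mostly stood highest in number 2 in all 4 groups, while numbers 1 and 3 changed order with LPS. Number 2 was the highest library of its group in all 4 groups for 8 of the 9 ATF4/CHOP genes (8.26% of 13465 genes showed this). The exception was Psat1, with 410 in control replicate 1 and 399 in control replicate 2. The same held for Herpud1, Sel1l and Ern1 and for no chaperone. The chaperones leaned the other way, as number 1 was highest in all 4 groups for 7 of 14 (Hspa5, Hsp90b1, Dnajb11, Pdia3, Pdia6, Sdf2l1 and Hyou1, against 5.41% of genes), and number 3 was highest in all 4 groups for no member (7.07%). The median deviation of the ATF4/CHOP genes of number 2 from their group means was 0.47 in control, 0.57 with oxLDL, 1.35 with LPS and 1.29 with both, on the log2 scale. In the same order of groups it was −0.005, −0.125, −0.649 and −1.068 in number 1 and −0.651, −0.524, −0.329 and −0.191 in number 3. Number 3 was thus lowest without LPS and number 1 lowest with it. The summed mesothelial and fibroblast markers were highest in number 1 in each group and lowest in number 3. Neither their part nor that of the sex-linked genes in the pattern of the ATF4/CHOP genes was tested.

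**Figure D3:**
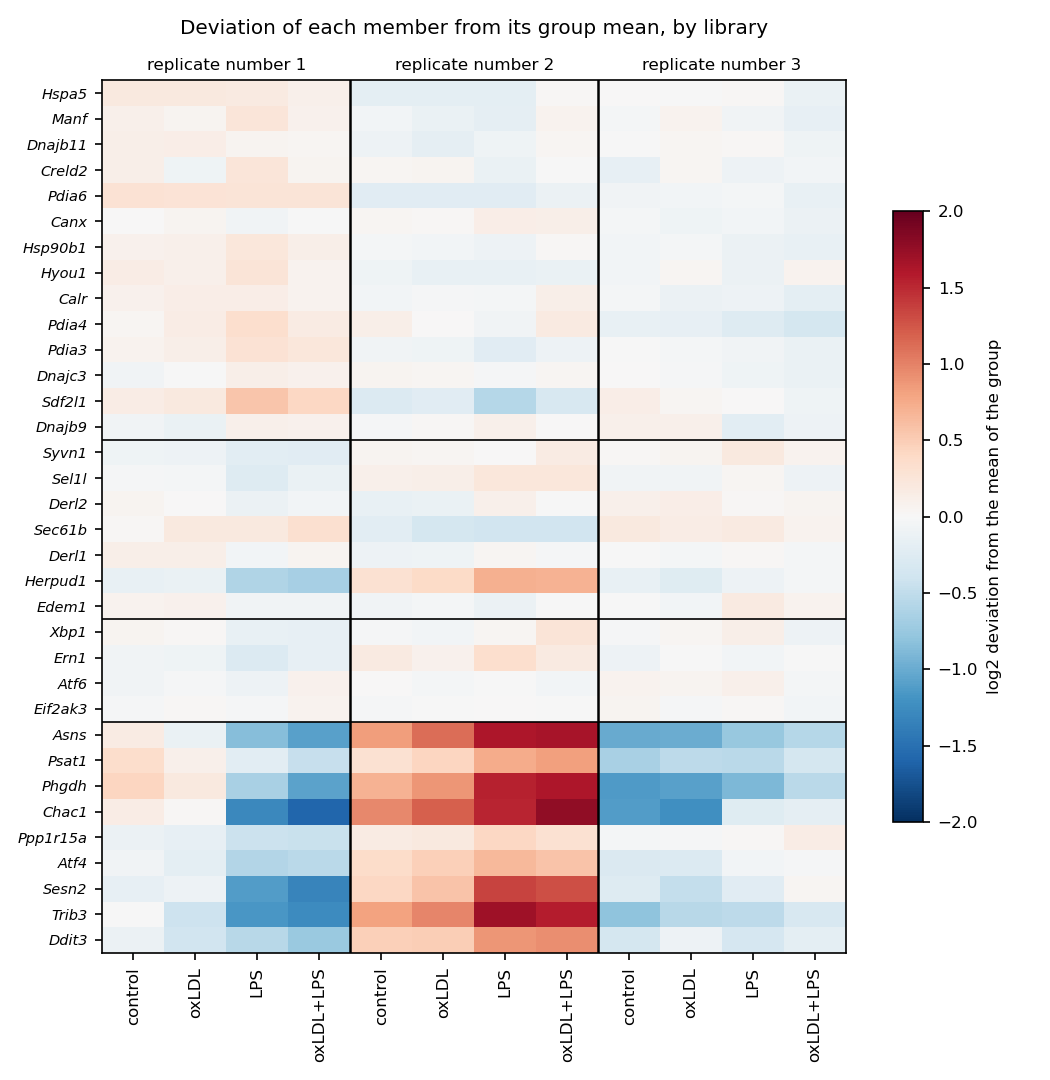
Log2 deviation of each member (rows, by role) from the mean of its own group in each library, with the libraries ordered by replicate number. The ATF4/CHOP rows are high in number 2 in all 4 groups, with medians of 0.47 to 1.35, and low in the LPS-treated libraries of number 1.

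oxLDL alone changed no member by the fit without the block. In oxLDL against control 0 of 34 members and 0 of 12734 genes (0.0%) were called, while 1 member (Xbp1) and 379 genes had an unadjusted p under 0.05. With the block 5 members were called (4 higher, 1 lower), against 4.7% of all genes (1.79% higher, 2.91% lower). Groups that did not overlap were found for Xbp1 and Edem1, 2 of 34 members, against 7.69% of all genes. Xbp1 had a log2 difference of 0.16 ± 0.06 (adjusted p = 0.0907 with the block), and each oxLDL library lay above each control library. Edem1 was lower by −0.16 ± 0.072 (adjusted p = 0.0897 with the block), with 5344 to 5936 against 5949 to 6569.

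The other 3 genes called with the block were Psat1 (0.41 ± 0.32, and SE 0.084 and adjusted p = 0.0255 with the block), Pdia6 (0.19 ± 0.17, and SE 0.042 and adjusted p = 0.0416 with the block) and Hyou1 (0.20 ± 0.093, and SE 0.047 and adjusted p = 0.0484 with the block). Hyou1, also known as GRP170, read 2530, 2141 and 2199 in control and 2812, 2383 and 2710 with oxLDL. In each of these genes oxLDL was higher within all 3 numbers while the groups overlapped. Of the chaperones, 12 of 14 had a log2 difference above 0 and the median was 0.10, while the ATF4/CHOP median was 0.03 and all genes had −0.01. The difference of the branch medians was 0.07, and by number 0.17, −0.05 and −0.13.

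**Figure D4:**
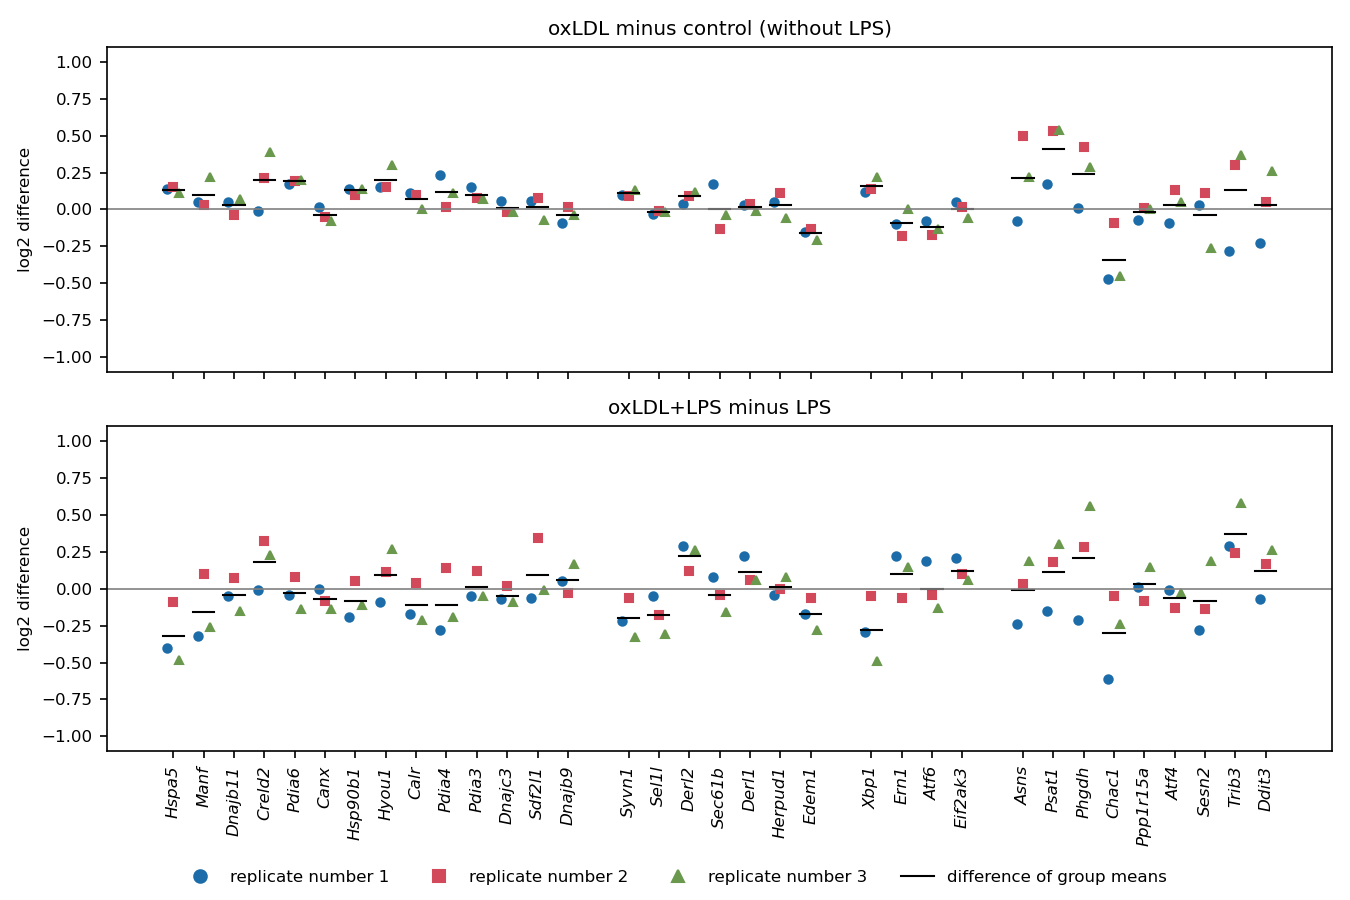
Log2 difference between the oxLDL-treated and the untreated library of the same replicate number for each member, without LPS (upper) and with LPS (lower), with the difference of the group means as a line. Hspa5, Syvn1 and Xbp1 are above 0 in all 3 numbers without LPS and below 0 in all 3 numbers with it.

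In PMφs given LPS, prior oxLDL called no member without the block either. In oxLDL+LPS against LPS 0 of 34 members and 0 of 12769 genes (0.0%) were called, with 1 member and 890 genes at an unadjusted p under 0.05. With the block 3 members were called (2 higher, 1 lower), against 13.2% of all genes (4.41% higher, 8.75% lower). These were Derl2 (0.22 ± 0.095, and SE 0.073 and adjusted p = 0.0988 with the block), Xbp1 (−0.28 ± 0.14, and SE 0.09 and adjusted p = 0.0975 with the block) and Trib3 (0.37 ± 0.91, and SE 0.12 and adjusted p = 0.0922 with the block). Derl2 was higher with oxLDL in all 3 libraries without overlap, and Trib3 was higher within each number although number 2 lay far above the others. Groups did not overlap for 4 of 34 members (Hspa5, Derl1, Derl2 and Eif2ak3), against 12.6% of all genes. Hspa5 was 0.799-fold (log2 −0.32 ± 0.14, adjusted p = 0.71, and 0.103 with the block), with 13909 to 16222 against 16522 to 21471.

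Of the 34 members, 0 passed the test of the difference between the oxLDL effects with and without LPS, and 0 of 13465 genes passed it (416 at an unadjusted p under 0.05, of which 2 were members). With a block for each number within each LPS state 0 members passed, against 1.04% of all genes. The largest values among the chaperones, ERAD genes and sensors were those of Hspa5 (−0.46 ± 0.20, adjusted p = 1.0), Xbp1 (−0.44 ± 0.15, adjusted p = 1.0) and Syvn1 (−0.31 ± 0.17, adjusted p = 1.0). In these 3 members, and in no other, the oxLDL difference had 1 sign in all 3 numbers without LPS and the opposite sign in all 3 with it, as in 4.11% of all genes. The adjusted p of Hspa5 ranged from 0.106 to 1.0 over the alternatives.

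Levels between genes were compared per kb of exon. In control PMφs Calr was highest with a mean of 4272 normalized counts per kb, followed by Pdia3 (2276), Hspa5 (1997), Canx (1986) and Hsp90b1 (1703). Hspa5 and Canx next to each other in this order differed by less than the spread between libraries. With LPS Hspa5 was first with 4520 per kb, ahead of Calr (4353), again within the spread, and Atf4 moved from the sixth place (1532) to the third (2653). At the other end Chac1 was lowest in control (22.6 per kb), and Eif2ak3 was lowest with LPS (41.5 per kb). Asns moved from place 30 of 34 in control to place 16 with LPS.

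Other genes of the same pathways, in 3 lists, were read in the same fits. Of the 43 further ATF4 targets and amino acid genes, 42 were tested in LPS against control. Of these 16 were higher and 2 lower, or 42.9% called against 61.7% of all genes. With the block 26 were higher and 4 lower, or 71.4% against 68.7% of all genes. Their median was 0.46 (0.21, 0.84 and 0.40 by replicate number). The counts in oxLDL+LPS against oxLDL were 17 higher and 2 lower, or 46.3% against 54.5%, with a median of 0.47. With the block they were 24 and 4, or 68.3% against 63.4%. Slc7a11, the cystine transporter xCT, read 312, 252 and 322 in control, 443, 338 and 1101 with oxLDL, 6633, 11399 and 12245 with LPS and 13290, 11348 and 26118 with both. It rose 33.1-fold (log2 5.05 ± 0.23, adjusted p = 1.76e-06) and 28.7-fold (4.85 ± 0.47, adjusted p = 0.000168), far above any member, with each LPS-treated library over each library without LPS.

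Its heavy chain Slc3a2 rose by 1.28 ± 0.18 (adjusted p = 0.000593) and 1.51 ± 0.14 (adjusted p = 0.000138). The stress-induced regulator Nupr1 rose by 2.84 ± 0.17 (adjusted p = 6.58e-06) and 2.52 ± 0.28 (adjusted p = 0.000322), and Cebpb, a partner of CHOP, by 2.01 ± 0.16 (adjusted p = 3.52e-05) and 1.61 ± 0.14 (adjusted p = 8.11e-05). Wars1, tryptophanyl-tRNA synthetase, which interferon is also known to induce, rose by 2.28 ± 0.26 (adjusted p = 0.000213) and 1.58 ± 0.44 (adjusted p = 0.0218). Cebpg, a dimer partner of ATF4, fell by 0.76 (± 0.21, adjusted p = 0.016) and by 0.48 (± 0.13, adjusted p = 0.0189), and Klhl24 fell by 0.66 (± 0.18, adjusted p = 0.0176) and by 0.63 (± 0.16, adjusted p = 0.0149).

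Among 28 other sensors, kinases and regulators, 13 were higher and 6 lower of 27 tested in LPS against control (70.4% called against 61.7% of all genes, median 0.39), and 14 and 5 in oxLDL+LPS against oxLDL (70.4% against 54.5%, median 0.36). Eif2ak2, the eIF2α kinase PKR that senses double-stranded RNA and is known as an interferon-stimulated gene, read 562, 591 and 609 in control, 567, 538 and 530 with oxLDL, 7851, 8042 and 9009 with LPS and 6681, 7103 and 7321 with both. It rose 14.1-fold (3.82 ± 0.09, adjusted p = 1.31e-07) and 12.9-fold (3.69 ± 0.076, adjusted p = 1.48e-07), while Eif2ak4, the eIF2α kinase GCN2 that senses uncharged tRNA, fell by 0.75 (± 0.11, adjusted p = 0.000744) and by 0.67 (± 0.13, adjusted p = 0.00442). The eIF2α kinases thus differed in direction, since Eif2ak3 also fell. Ppp1r15b, the constitutive counterpart of GADD34, rose by 1.51 ± 0.11 (adjusted p = 2e-05) and 1.04 ± 0.087 (adjusted p = 7.69e-05). Traf2, the adaptor of IRE1, rose by 1.93 ± 0.12 (adjusted p = 8.08e-06) and 1.91 ± 0.089 (adjusted p = 4.91e-06), and Bcl2l11, the proapoptotic BIM, fell by 1.41 (± 0.15, adjusted p = 0.000161) and by 1.24 (± 0.16, adjusted p = 0.000637).

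Among 52 further ER folding, translocation and ERAD genes, 16 were higher and 10 lower of 51 tested in LPS against control (51.0% called against 61.7% of all genes, median 0.16), and 15 and 7 in oxLDL+LPS against oxLDL (43.1% against 54.5%, median 0.11). The largest rise named by the rule was that of Fam129a, which encodes the stress protein Niban, with 1.80 ± 0.17 (adjusted p = 7e-05) and 1.54 ± 0.16 (adjusted p = 0.000208). The COPII coat gene Sec23b rose by 0.88 ± 0.086 (adjusted p = 9.09e-05) and 0.79 ± 0.081 (adjusted p = 0.000213). Edem2, the paralog of Edem1, fell by 0.50 (± 0.087, adjusted p = 0.00184) and by 0.48 (± 0.072, adjusted p = 0.00131), and Wfs1, an ER membrane protein induced by stress in other cells, fell by 0.63 (± 0.12, adjusted p = 0.0029) and by 0.79 (± 0.15, adjusted p = 0.00433). With oxLDL alone 0 genes of these 3 lists were called without the block and 5 with it (4.2% against 4.7% of all genes), 4 higher and 1 lower. Among them were Slc7a11 (0.90 ± 0.39, adjusted p = 0.0367 with the block) and Gdf15 (0.62 ± 0.21, adjusted p = 0.0131 with the block), a secreted stress cytokine.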

How the data were processed

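Poly(A) libraries of 12 PMφ cultures, 3 per group, were trimmed with Trimmomatic 0.32, aligned to mm10 (GRCm38) with STAR 2.5.1b and counted per gene with featureCounts (Subread), per the submitters' notes. The deposited signal, whole numbers per gene symbol, shows the spacing that remains when reads are scaled library by library and rounded, so the authors had normalized it, and count models were not run although they had been planned for unscaled counts. The strand setting of the counting is not given in the sources used here, so overlapping genes are uncertain. The 25 symbols turned into dates were left out.

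Groups were compared with limma 3.58.1 (R 4.3.3, trend) on log2(value + 1), on the 6 libraries of a comparison or all 12 for the interaction. Genes were tested if 3 or more of those libraries had a value of 10 or more. An adjusted p under 0.1 (Benjamini-Hochberg over all genes) was a call. The fit was tried on simulated libraries with independent noise and no effect of the replicate number, so that trial cannot speak to such an effect. Deviations of same-numbered libraries correlated at 0.602 to 0.657 (oxLDL and control), 0.34 to 0.538 (LPS and control), 0.266 to 0.566 (oxLDL+LPS and oxLDL) and 0.566 to 0.599 (oxLDL+LPS and LPS) over 13465 genes, which are not independent. The 0.34 and 0.266 are those of number 1, whose sex-linked genes differed between libraries with and without LPS. Pairing across LPS is thus uncertain for number 1, and so are the blocked values of the LPS comparisons. The study's methods name no block, so blocked values stand beside unblocked ones. Every value after ± is the standard error of the fit without the block.

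The members and lists were chosen with earlier results of these data known. Called members and 8 set by name are given in every library; other lists name at most 4 called genes per direction, smallest p first. Alternatives were other pseudocounts, filters, scalings, variance models and libraries left out. Positions are from GENCODE vM21 and promoters from RefSeq.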

Additional observations from a re-analysis of the deposited data

Results flagged for a closer look

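The oxLDL effect of 3 members was above 0 in all 3 replicate numbers without LPS and below 0 in all 3 with it, as in 1.92% of all genes. With LPS minus without, it was −0.46 for Hspa5, −0.44 for Xbp1 and −0.31 for Syvn1 on the log2 scale, and none of these differences passed the interaction test (adjusted p = 1.0, limma).

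The LPS effect on Hsp90b1 was above 0 in all 3 numbers without oxLDL and below 0 in all 3 with oxLDL. With oxLDL, however, number 2 hardly differed, at 7185 without LPS and 7171 with it. The difference between the LPS effects was −0.21 (adjusted p = 1.0, limma), so it was not called either. The share of all genes with this pattern was not counted, and pairing across LPS is uncertain for number 1.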

How the results depend on the processing

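With the replicate block, 5 members were called in oxLDL against control and 3 in oxLDL+LPS against LPS, and 599 and 1680 of all genes, in place of 0 in each without it. The block added calls, each given beside its result, and ended none. Leaving out libraries, the branch difference spanned −0.21 to 0.36 in oxLDL against control (−0.09 without replicate number 1), −1.73 to −0.61 in oxLDL+LPS against oxLDL and −0.68 to 0.35 in oxLDL+LPS against LPS. Members called spanned 11 to 19 in LPS against control and 10 to 21 in oxLDL+LPS against oxLDL, and the calls over all genes moved as well. The 11 came without number 3 in both groups (5816 of 12297 genes called) and the 19 without LPS replicate 1 (7678 of 12549). The 10 came without number 3 in both groups (4930 of 12239 genes called) and the 21 without oxLDL+LPS replicate 1 (6687 of 12543). Leaving out number 1, 2 or 3 in both groups ended 4, 5 and 9 of the unblocked calls and added 3, 2 and 0. Trib3 in oxLDL+LPS against LPS spanned −0.41 to 1.22, turning below 0 without LPS replicate 1 (−0.22) or oxLDL+LPS replicate 2 (−0.41).

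Directions under other settings were read only for results called without or with the block. Under quantile normalization, LPS against control turned for Dnajb11 (−0.07), Pdia6 (−0.23) and Sel1l (−0.34), and oxLDL+LPS against oxLDL for Dnajb11 (−0.08). Under scaling by the library total, chosen after the data were seen, LPS against control turned for Dnajb11 (−0.10), Pdia6 (−0.22), Creld2 (−0.13) and Sel1l (−0.20), and oxLDL+LPS against oxLDL for Dnajb11 (−0.08), Creld2 (−0.05), Manf (−0.03), Syvn1 (−0.02) and Derl2 (−0.05). Both lower the median of all genes in these comparisons. Other pseudocounts, filters, median-of-ratios scaling and the fit without a variance trend kept the direction of every result called without or with the block. Counting error weighs most on Chac1, which read 10 to 62 without LPS.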
